A study of Mus musculus with 24 samples.

Results

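The genes described here are p53 (Trp53) and 9 genes that p53 is known to activate: Mdm2, Pmaip1, Sesn1, Zmat3, Perp, Trp53inp1, Btg2, Bax and Ccng1. They were taken by name, with earlier results of these data known. Where a gene had several probe sets, the brightest on average over the 24 arrays was read. Of the 10 listed genes 8 had a probe set with a single gene symbol, out of 12394 genes in all. Trp53 and Bax were not analysed here.

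RNA was measured on mouse Affymetrix arrays in cultures of the medulloblastoma lines SMB21, SMB55 and SMB56, from primary medulloblastomas and from normal cerebella. SMB lines come from spontaneous tumors of Ptch+/- mice and were grown as neurospheres in DMEM/F12 with B27. RAS cells are SMB cells transformed with RAS (7 arrays: 3 of SMB21, 2 of SMB55 and 2 of SMB56). GF cells were kept for over 3 weeks in EGF at 20 ng/mL, bFGF at 20 ng/mL and 0.2% heparin (3 arrays, 1 per line). Parental cells (8 arrays: 4, 2 and 2) had neither. Primary medulloblastomas (MB, 3 arrays) and all SMB cultures are labelled Ptch1 mutant and adult. Normal cerebella are wild type, 1 array from an adult and 2 from postnatal day 6 (P6), and for P6 replicate 2 the age label contradicts the title, which was followed. The titles number all arrays but the adult one as biological replicates. The labels do not describe the RAS construct, the Trp53 genotype or which animals and cultures the arrays came from. The p-values thus measure the spread between these arrays. How independent the replicates are is not known, and part of the spread may be technical. The 3 lines stand for SMB cells in every comparison of cultures with tissue.

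The p53 protein is a transcription factor that is stabilised by DNA damage and by oncogene activity. It binds paired half-sites in DNA and switches on genes that stop the cell cycle, repair damage or kill the cell. Mdm2, one of its targets, is the ubiquitin ligase that marks p53 for destruction, and the Arf protein made from Cdkn2a inhibits Mdm2. In the cerebellum, granule neuron precursors divide in response to Hedgehog signals in the first weeks after birth, and Ptch1 loss in these cells gives rise to medulloblastoma.

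Promoter sequences show how far the members differ in the element they are named for. Among the measured members that were scored, Ccng1 and the downstream start of Sesn1 have the closest p53 element. They are shown with Btg2, which had the largest fall in RAS cells, and Mdm2, the feedback inhibitor, 4 promoters in all. Each runs from 250 bases before to 50 bases after a transcription start annotated by RefSeq on GRCm38.p6. Capitals mark the pair of half-sites closest to the p53 half-site consensus, searched on both strands with a spacer of at most 13 bases. Where pairs tie, the first is marked. The Ccng1 promoter lies at chr11:40755237-40755536 on the minus strand, Sesn1 at chr10:41887189-41887488 on the plus strand, Btg2 at chr1:134079106-134079405 on the minus strand and Mdm2 at chr10:117710709-117711008 on the minus strand.
Ccng1: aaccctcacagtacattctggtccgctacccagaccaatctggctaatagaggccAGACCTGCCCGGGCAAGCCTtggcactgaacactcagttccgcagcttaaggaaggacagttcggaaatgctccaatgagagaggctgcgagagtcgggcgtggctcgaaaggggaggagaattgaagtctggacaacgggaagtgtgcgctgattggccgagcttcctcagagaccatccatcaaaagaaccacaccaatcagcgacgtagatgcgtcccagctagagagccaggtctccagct
Sesn1: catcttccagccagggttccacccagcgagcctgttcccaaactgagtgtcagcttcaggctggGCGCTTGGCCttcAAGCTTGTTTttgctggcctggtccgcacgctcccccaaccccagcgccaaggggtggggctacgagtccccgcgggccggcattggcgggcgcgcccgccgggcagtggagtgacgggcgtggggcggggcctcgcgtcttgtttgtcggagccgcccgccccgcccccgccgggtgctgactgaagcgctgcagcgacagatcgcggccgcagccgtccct
Btg2: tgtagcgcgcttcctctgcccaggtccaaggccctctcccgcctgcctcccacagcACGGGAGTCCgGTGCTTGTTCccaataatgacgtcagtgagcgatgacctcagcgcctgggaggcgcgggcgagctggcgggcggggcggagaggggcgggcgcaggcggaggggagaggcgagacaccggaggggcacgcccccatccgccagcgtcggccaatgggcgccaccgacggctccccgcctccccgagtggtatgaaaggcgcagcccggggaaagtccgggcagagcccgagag
Mdm2: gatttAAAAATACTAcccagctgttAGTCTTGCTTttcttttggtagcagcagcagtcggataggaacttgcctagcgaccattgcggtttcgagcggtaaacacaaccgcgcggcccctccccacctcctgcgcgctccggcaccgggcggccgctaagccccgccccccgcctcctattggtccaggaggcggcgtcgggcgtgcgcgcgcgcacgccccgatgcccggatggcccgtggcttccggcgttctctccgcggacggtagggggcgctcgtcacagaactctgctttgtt
The Ccng1 pair has 1 mismatch to the consensus over its 20 bases and spans positions -195 to -176 from the start, with no spacer. Among all 32851 promoters of this length, 1.093% hold a pair with at most 1 mismatch. The Sesn1 pair has 2 mismatches and a spacer of 3 bases, and 10.07% of promoters hold one with at most 2. Btg2 and Mdm2 have 4 mismatches each, which 89.343% of promoters match or better. The Mdm2 promoter also holds a single half-site with 0 mismatches outside its marked pair, and 8.356% of promoters hold such a half-site. The upstream Sesn1 start had 5 mismatches. Bax, which was not measured here and is not shown, has a pair with 1 mismatch, as Ccng1 does. These are matches of letters, not sites. In mice the p53-responsive start of Mdm2 is known to lie in the first intron, outside this window. Promoters of 6 of the 10 members were scored. Those of Pmaip1, Zmat3, Perp and Trp53inp1 were not, so how close their elements are is not known here.

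Values are log2 of the deposited intensity plus 16 (log2 level). A difference of 1 is 2-fold on that scale, which understates changes of dim genes. Over all arrays and genes the lowest value was 4.72 and the lowest 10% lay under 5.43. Probe sets differ in how well they bind, so levels are compared between samples and not between genes. Tests are limma's, two-sided, with p adjusted over all 12394 genes. Adjusted p-values under 0.05 count as calls. P6 arrays are the controls of 3 comparisons and parental arrays the controls of both GF and RAS, so results against the same arrays are not independent of each other.

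Array medians lay between intensities of 188.8 and 245.1. Replicate arrays correlated at 0.944 to 0.997 over all genes, lowest for the 2 parental arrays of SMB56. Parental replicate 1 of SMB21 stood apart from the other 3 (r of 0.969 to 0.971, against 0.992 to 0.996 among them). Results on cultures that change without parental replicate 1 of every line are given with both values. Of the markers of labelled tissues, the 5 granule neuron precursor markers had a mean log2 level of 12.39 to 12.60 in MB and 11.71 to 11.82 in P6, and the 3 Purkinje cell markers 5.68 to 6.89 in MB and 12.73 to 12.74 in P6. No intensity was 0, the lowest being 9.98.

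**Figure D1:**
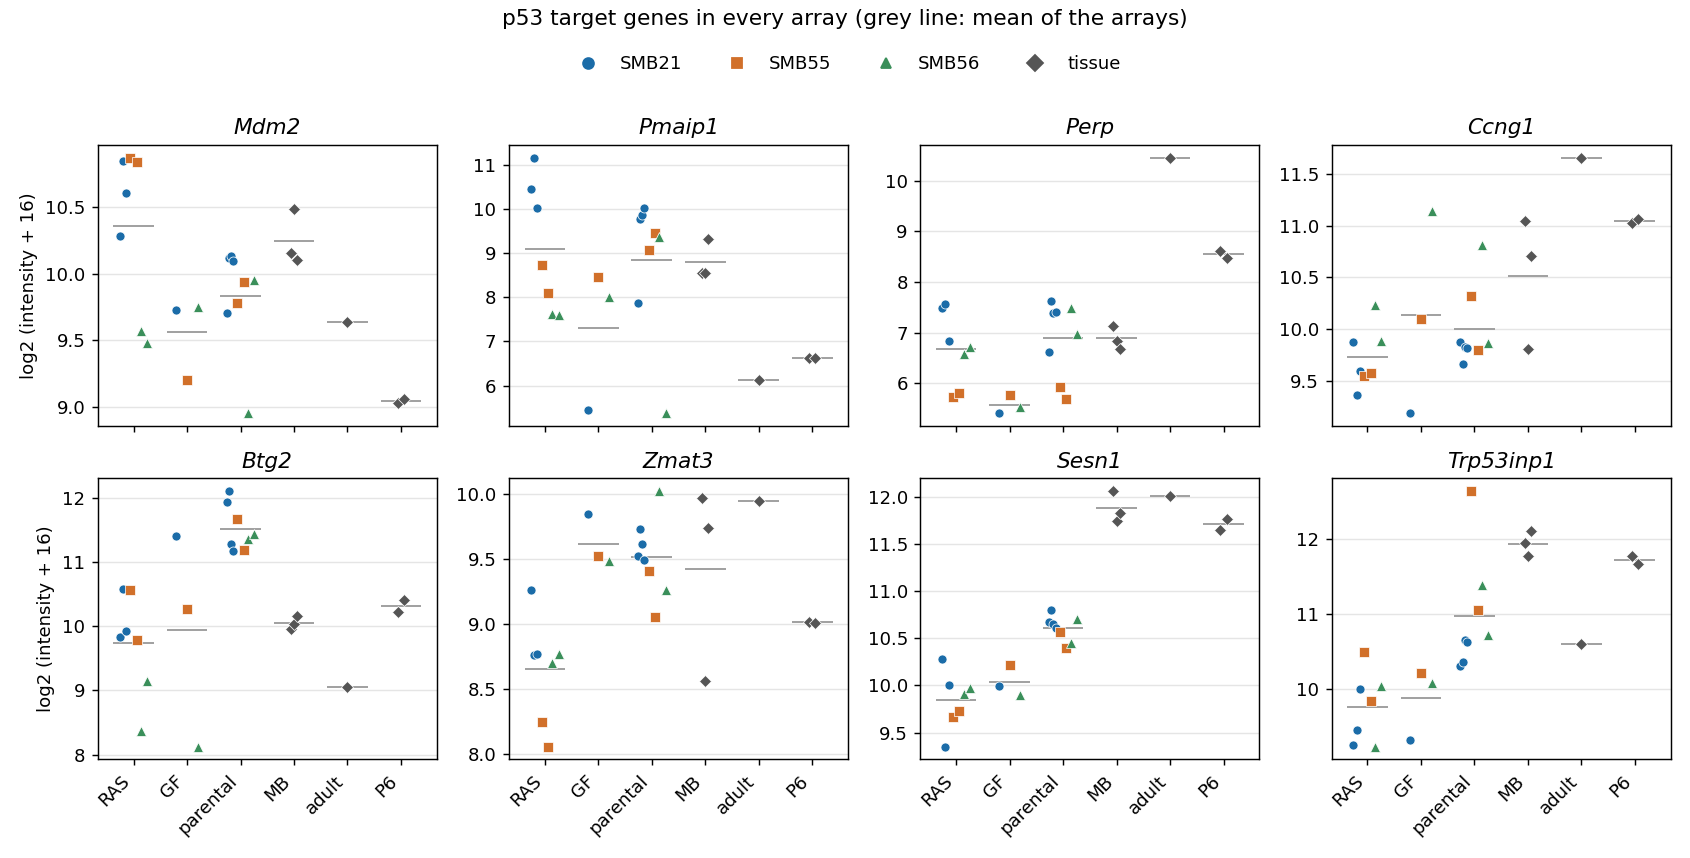
Log2 level of the 8 measured p53 target genes in every array, by group; colours and symbols mark the lines and grey bars the mean of the arrays. Sesn1 and Btg2 lie lower in all 7 RAS arrays than in all 8 parental arrays, while Pmaip1 and Perp spread widely among parental arrays.

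RAS cells against parental cells asked which p53 targets differ after RAS transformation of the 3 lines. Btg2, Sesn1, Trp53inp1 and Zmat3 fell and Mdm2 rose, while Pmaip1, Perp and Ccng1 were not called. The 5 calls among 8 members stand beside 32.1% of all genes called in this comparison (14.1% higher and 17.9% lower). The members' median difference was -0.53, against -0.05 over all genes. The share of all genes whose groups of arrays do not overlap was not counted, so non-overlap is only a description throughout.

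Btg2, which slows cell division and favours neuronal differentiation, had log2 levels of 10.57, 9.93 and 9.83 in SMB21 RAS cells, 10.55 and 9.78 in SMB55 RAS cells and 8.36 and 9.15 in SMB56 RAS cells. In parental cells it had 11.93, 12.10, 11.27 and 11.16 in SMB21, 11.67 and 11.18 in SMB55 and 11.36 and 11.43 in SMB56. Every RAS array lay below every parental array. The fall of Btg2 was 3.31-fold (-1.73, SE 0.32, adjusted p = 0.00088). A second Btg2 probe set fell less far, with a difference of -1.26.

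Sesn1 encodes a sestrin, which protects cells from oxidative stress and restrains mTORC1. It had 9.35, 10.01 and 10.28 in SMB21 RAS cells, 9.67 and 9.73 in SMB55 RAS cells and 9.91 and 9.98 in SMB56 RAS cells. Parental cells had 10.67, 10.80, 10.66 and 10.61 in SMB21, 10.57 and 10.39 in SMB55 and 10.46 and 10.70 in SMB56. The groups did not overlap, and the fall was 1.69-fold (-0.76, SE 0.12, adjusted p = 0.000222). Its other 2 probe sets gave -0.85 and -0.77.

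Trp53inp1, a stress protein that helps p53 induce cell death, had 9.46, 9.996 and 9.25 in SMB21 RAS cells, 10.49 and 9.85 in SMB55 RAS cells and 9.23 and 10.04 in SMB56 RAS cells. Its parental levels were 10.31, 10.36, 10.65 and 10.63 in SMB21, 12.64 and 11.05 in SMB55 and 11.39 and 10.72 in SMB56. Within each line all RAS arrays lay below all parental arrays. Trp53inp1 fell by 1.26 (SE 0.23, adjusted p = 0.000931), and its dimmer second probe set differed by -0.51.

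Zmat3, an RNA-binding zinc finger protein, had 8.76, 8.77 and 9.26 in SMB21 RAS cells, 8.25 and 8.06 in SMB55 RAS cells and 8.70 and 8.77 in SMB56 RAS cells. Parental cells had 9.53, 9.73, 9.62 and 9.50 in SMB21, 9.41 and 9.05 in SMB55 and 10.02 and 9.26 in SMB56. Within each line the groups did not overlap. The fall was 1.79-fold (-0.84, SE 0.13, adjusted p = 0.000195), and Zmat3 has a single probe set.

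Mdm2 is the member that rose. It had 10.84, 10.61 and 10.28 in SMB21 RAS cells, 10.87 and 10.84 in SMB55 RAS cells and 9.57 and 9.48 in SMB56 RAS cells. Parental cells had 9.70, 10.12, 10.13 and 10.10 in SMB21, 9.78 and 9.94 in SMB55 and 8.95 and 9.95 in SMB56. All RAS arrays of SMB21 and SMB55 lay above their parental arrays, and those of SMB56 lay between the 2 parental ones. Mdm2 was 0.55 higher (SE 0.20, adjusted p = 0.0446), or 0.30 by its second probe set. The call was lost in 12 of 18 fits that left out 1 array (adjusted p = 0.0512 to 0.0980), among them those without any 1 of the 4 SMB21 or 2 SMB55 parental arrays. It was also lost without parental replicate 1 of every line (0.36, adjusted p = 0.262), with arrays centred on their median (0.47, adjusted p = 0.0745) and with 1 mean per line and treatment (adjusted p = 0.379).

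The 3 members that were not called include 2 that act in cell death, Pmaip1 and Perp. Pmaip1 (Noxa), a BH3-only protein that blocks survival proteins of the Bcl-2 family, had 11.15, 10.02 and 10.45 in SMB21 RAS cells, 8.72 and 8.09 in SMB55 RAS cells and 7.63 and 7.60 in SMB56 RAS cells. Its parental levels were 7.88, 9.76, 9.87 and 10.02 in SMB21, 9.06 and 9.46 in SMB55 and 9.36 and 5.38 in SMB56. RAS arrays thus lay above all parental arrays in SMB21, though barely (the closest at 10.022 and 10.017), below them in SMB55 and between them in SMB56. The limma F test of a difference in response between lines did not call Pmaip1 (adjusted p = 0.620). Over the lines, RAS cells differed from parental cells by 0.32 with an interval of -1.16 to 1.80 (95%). That interval is wide enough to hold a change of over 2-fold either way. Perp, a membrane protein of cell junctions that takes part in p53-induced death, differed by -0.16 (interval -0.65 to 0.33). Ccng1, cyclin G1, which recruits a phosphatase to Mdm2, differed by -0.31 (interval -0.69 to 0.08).

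The falls of Sesn1, Trp53inp1 and Zmat3 kept their calls in every alternative tried, among them those without any 1 array, without any 1 line and without parental replicate 1 of every line (-0.78, -0.998 and -0.70). Btg2 lost its call only with 1 mean per line and treatment (-1.80, adjusted p = 0.122). With arrays centred on their median, calls over all genes split into 1506 higher and 2953 lower, against 1750 higher and 2224 lower. Cell type markers moved in the same comparison. All 5 granule neuron precursor markers were lower (mean log2 level 7.10 to 8.46 in RAS and 10.22 to 11.75 in parental cells), as were 5 of 6 proliferation markers (10.38 to 11.38 in RAS and 11.28 to 11.83 in parental cells). Their part in the falls of the members was not tested. In bulk RNA fewer cells of a type and less RNA per cell cannot be told apart.

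**Figure D2:**
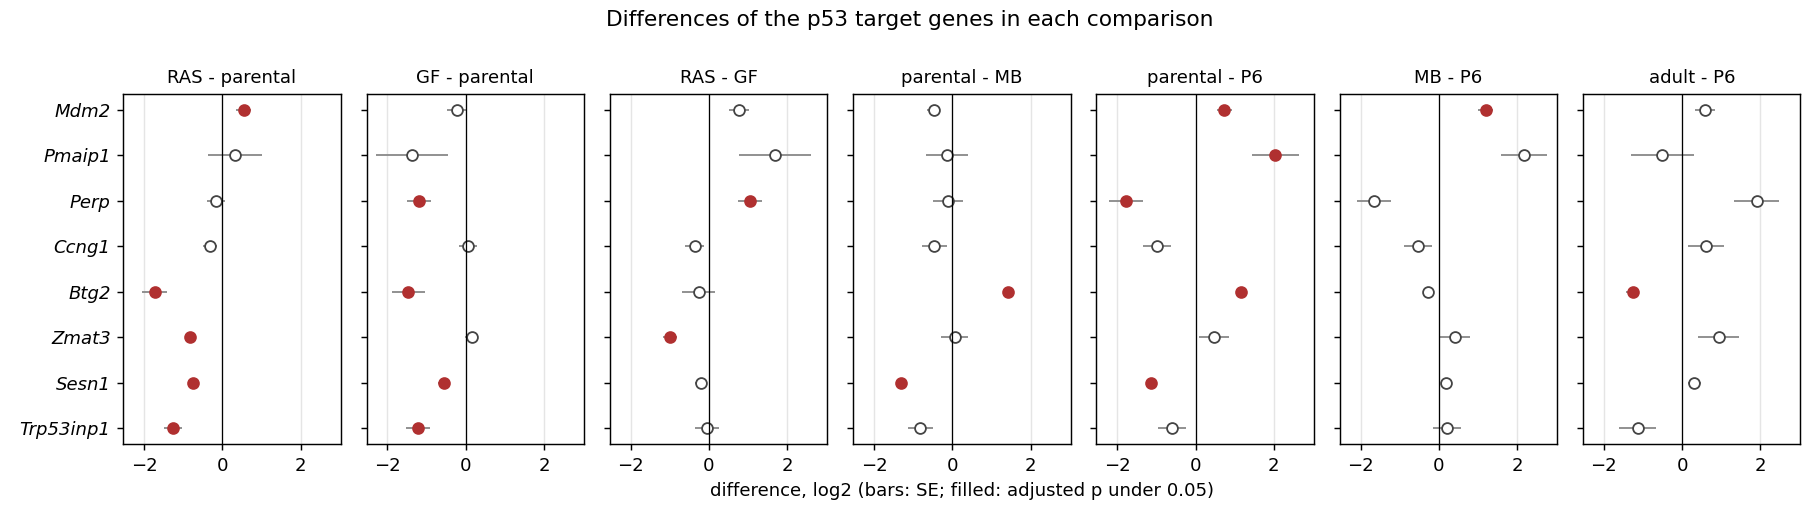
Log2 difference of each of the 8 genes in 7 comparisons, with SE bars; filled points have an adjusted p under 0.05. Btg2, Sesn1 and Trp53inp1 lie left of 0 in both RAS and GF cells against parental cells, and Btg2 lies right of 0 in parental cells against MB.

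By line, Btg2, Sesn1, Trp53inp1 and Zmat3 averaged lower in RAS cells in all 3 lines, and the lines differed in which of them were called. In SMB21, RAS cells had lower Btg2 (-1.51), Sesn1 (-0.80) and Zmat3 (-0.66), 3 of 8 members beside 19.4% of all genes (9.10% higher and 10.3% lower). In SMB55 the 4 genes Btg2 (-1.26), Sesn1 (-0.78), Trp53inp1 (-1.68) and Zmat3 (-1.08) fell and Mdm2 rose by 1.00, 5 of 8 beside 21.5% (10.6% higher and 10.9% lower). In SMB56 Btg2 (-2.64, adjusted p = 0.00328) and Zmat3 (-0.90, adjusted p = 0.0359) fell, 2 of 8 beside 5.90% of all genes lower (6.14% were higher). Sesn1 (-0.64, adjusted p = 0.100) and Trp53inp1 (-1.42, adjusted p = 0.0760) were not called in SMB56. The test of a difference between lines called none of the 8 members (3.45% of all genes), the lowest adjusted p being 0.273 for Btg2. With 2 arrays per group in SMB55 and SMB56, most calls there were lost in some fit without 1 array. Each of the 5 calls of SMB55 and that of Zmat3 in SMB56 ended in such a fit. The call of Btg2 in SMB55 ended also without RAS replicate 2 or 3 or parental replicate 3 of SMB21. Its difference stayed at -1.26 in those fits (adjusted p = 0.0505 to 0.0548). The second Btg2 probe set gave -0.64 in SMB55, and with the mean of all its probe sets Btg2 was not called there (-0.95, adjusted p = 0.0855). Leaving out 1 array also added calls: Sesn1 in SMB56 was called in 1 such fit (adjusted p = 0.0139), and Trp53inp1 in SMB56 (0.0297), Trp53inp1 in SMB21 (0.0371) and Mdm2 in SMB21 (0.0213) in 2 each. In SMB21 the call of Zmat3 ended without RAS replicate 1 or 2 or parental replicate 2 or 3 (0.0618 to 0.108).

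**Figure D3:**
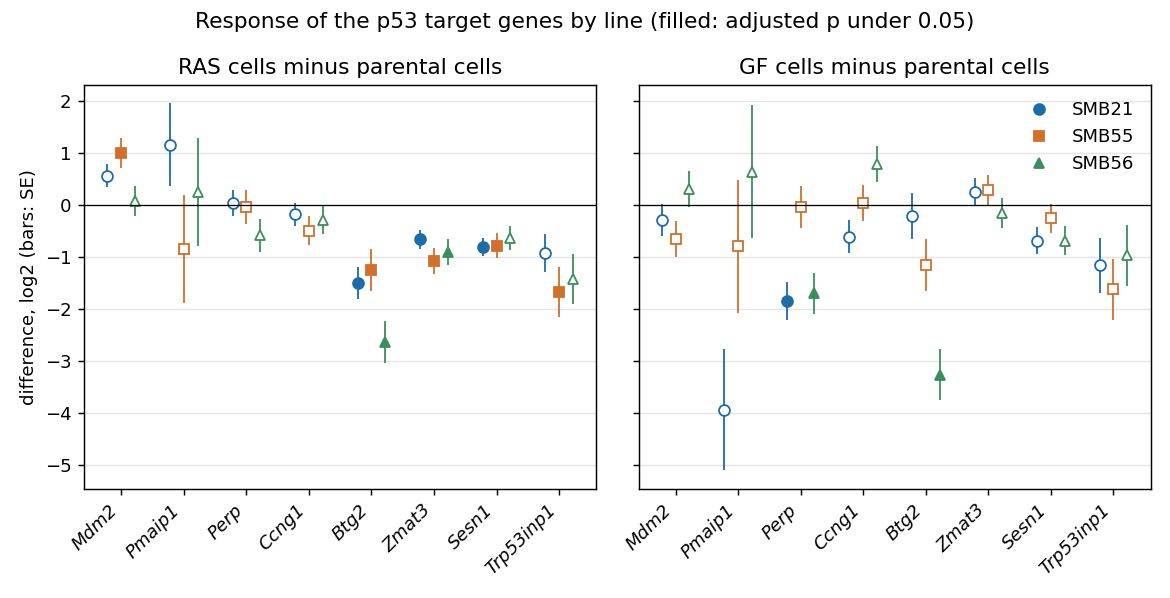
Log2 difference of RAS cells (left) and GF cells (right) from parental cells of the same line, with SE bars; filled symbols have an adjusted p under 0.05. Btg2, Zmat3, Sesn1 and Trp53inp1 lie below 0 in all 3 lines for RAS, and Btg2 in SMB56 is lowest of the RAS values at -2.64.

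GF cells against parental cells asked what culture in EGF and bFGF alone did. Btg2, Trp53inp1, Perp and Sesn1 fell, and no member rose. The 4 falls among 8 members stand beside 8.95% of all genes called (3.99% higher and 4.96% lower). The members' median difference was -0.88, against -0.01 over all genes.

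Btg2 had 11.40 in SMB21 GF cells, 10.27 in SMB55 GF cells and 8.12 in SMB56 GF cells, against the parental levels of 11.16 to 12.10 given above. SMB21 GF cells lay within the range of parental SMB21 cells, and the other GF arrays lay below all parental arrays. The fall was 1.47 (SE 0.42, adjusted p = 0.0400).

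Trp53inp1 had 9.33, 10.22 and 10.09 in GF cells of SMB21, SMB55 and SMB56, each below all parental arrays, and fell by 1.21 (SE 0.31, adjusted p = 0.0245). Sesn1 had 9.996, 10.22 and 9.89 in the same order, again below all parental arrays, and fell by 0.56 (SE 0.15, adjusted p = 0.0334). The second probe set of Trp53inp1 differed by -0.22, and the other 2 of Sesn1 by -0.70 and -0.83.

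Perp had 5.41 in SMB21 GF cells, 5.77 in SMB55 GF cells and 5.53 in SMB56 GF cells, near the lowest 10% of all values. Parental cells had 6.61, 7.63, 7.38 and 7.42 in SMB21, 5.93 and 5.69 in SMB55 and 7.48 and 6.98 in SMB56. The fall was 2.30-fold (-1.20, SE 0.30, adjusted p = 0.0236), while in SMB55 both groups were near the floor. Among parental lines the level of Perp differed (limma F test, adjusted p = 0.0263, beside 5.08% of all genes), and it was the only member of 8 called there. That call was lost without either SMB55 array (0.0970 and 0.170) and without SMB21 replicate 2, 3 or 4 (0.0537 to 0.0689).

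Zmat3 was not called in GF cells. It had 9.85, 9.52 and 9.48 in GF cells of SMB21, SMB55 and SMB56, and its difference from parental cells was 0.155 (SE 0.17, adjusted p = 0.657). Pmaip1 had 5.45 in SMB21 GF cells, below all 4 parental SMB21 arrays, and 8.46 and 8.01 in GF cells of SMB55 and SMB56. Its difference in SMB21 was -3.94 (SE 1.17, adjusted p = 0.0646). That difference was called in 3 of 17 fits without 1 array, among them the fit without SMB21 parental replicate 1 (-4.44, adjusted p = 0.0276). Over the lines Pmaip1 differed by -1.37 (interval -3.31 to 0.58). Mdm2 differed by -0.22 and Ccng1 by 0.06.

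Each line has 1 GF array, assumed to vary like the other groups. All 4 calls were lost with 1 mean per line and treatment (adjusted p = 0.0774 to 0.255). Without the SMB56 GF array that of Btg2 (-0.83, adjusted p = 0.312), Perp (0.134), Sesn1 (0.188) and Trp53inp1 (0.0605) was lost, and without the SMB21 GF array that of Perp, Sesn1 and Trp53inp1 (0.199, 0.159 and 0.110). Without the SMB55 GF array Btg2 (0.0879) and Trp53inp1 (0.0847) were not called. Without 1 parental or RAS array Btg2 was lost in 6 fits (SMB21 parental 1 and 2, SMB55 parental 1, SMB56 parental 1 and 2 and SMB56 RAS 2) and Sesn1 in 4 (SMB21 parental 2 and 3, SMB55 parental 1 and SMB56 parental 2). Without parental replicate 1 of every line Btg2 (-1.29, adjusted p = 0.114) and Sesn1 (-0.58, adjusted p = 0.0652) were not called.

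Within lines, GF cells had lower Perp in SMB21 (-1.85, adjusted p = 0.0114; 1 of 8 members beside 8.21% of all genes, 4.03% higher and 4.18% lower). In SMB56, Btg2 (-3.27, SE 0.49, adjusted p = 0.00361) and Perp (-1.70, adjusted p = 0.0314) were lower, 2 of 8 beside 5.43% (3.18% higher and 2.25% lower). The call of Perp in SMB56 was lost without parental replicate 1 (-1.45, adjusted p = 0.0952). In SMB55 limma called 0 of 8 members (0.686% of all genes, 0.484% higher and 0.202% lower), with 2 at an unadjusted p under 0.05. The test of a difference between lines called none of the 8 (1.40% of all genes), the lowest adjusted p being 0.101 for Btg2. Granule neuron precursor markers were lower in GF cells too (2 of 5 called, mean log2 level 7.88 to 10.22 in GF and 10.22 to 11.75 in parental cells), and 0 of 6 proliferation markers were called. By line, the precursor markers fell least in SMB55 (median difference -0.46, 1 of 5 called). In SMB21 the median was -3.38 (5 of 5 called) and in SMB56 -3.19 (3 of 5 called). The part of these markers was not tested.

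RAS cells against GF cells compared RAS transformation with growth factor culture. Zmat3 fell by 0.99 (SE 0.17, adjusted p = 0.00342) and Perp was 1.04 higher (SE 0.31, adjusted p = 0.0426), 2 of 8 members beside 11.2% of all genes (5.70% higher and 5.45% lower). Zmat3 lay at 8.06 to 9.26 in RAS cells and at 9.48 to 9.85 in GF cells, with no overlap. Perp lay at 7.58, 6.84 and 7.49 in SMB21 RAS cells, 5.73 and 5.81 in SMB55 RAS cells and 6.57 and 6.72 in SMB56 RAS cells, and in SMB55 the RAS arrays lay on either side of the GF array (5.77). Btg2 (-0.26), Sesn1 (-0.20) and Trp53inp1 (-0.05, interval -0.70 to 0.60) were not called. Mdm2 was 0.76 higher in RAS cells (SE 0.26, adjusted p = 0.0712), and it was called without the SMB56 GF array (1.13, adjusted p = 0.0271). The call of Perp was lost in 11 of 18 fits without 1 array (adjusted p = 0.0516 to 0.222), with centred arrays (0.0656) and with 1 mean per line and treatment (0.230). That of Zmat3 was lost in 3 alternatives, among them those with 1 mean per line and treatment (-1.01, adjusted p = 0.0618) and without line SMB55 (-0.82, adjusted p = 0.0675). With arrays centred on their median, calls over all genes split into 547 higher and 981 lower, against 707 higher and 676 lower.

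The p53 targets outside these 10 genes did not share one direction in RAS cells. Of 42 other targets measured (50 listed), 13 rose, 7 fell and 22 were not called, beside 14.1% of all genes higher and 17.9% lower. Their median difference was 0.04, against -0.05 over all genes. Plk2, a polo-like kinase, rose by 4.04 (SE 0.34, 16.4-fold) to 10.93 to 13.32 in RAS cells, against 7.28 to 9.43 in parental cells. Phlda3, an inhibitor of Akt, rose by 3.82 (SE 0.34) to 9.95 to 13.05, against 6.50 to 9.19. Both groups of arrays stood apart in each gene.

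Lif, a cytokine, rose by 3.73 (SE 0.32), Thbs1, the secreted matrix protein thrombospondin, by 3.02 (SE 0.32) and Epha2, an ephrin receptor, by 2.04 (SE 0.28, adjusted p = 8.87e-05). Thbs1 lay at 7.23 to 10.02 in RAS cells, at 5.51 to 5.67 in GF cells and at 5.33 to 6.32 in parental cells. Cdkn1a, the p21 inhibitor of cell cycle kinases, is named here after its values were seen, being the target best known for growth arrest. It lay at 11.11 to 13.10 in RAS cells, at 10.59 to 11.86 in GF cells and at 8.34 to 11.58 in parental cells, and rose by 2.03 in RAS cells (SE 0.41, adjusted p = 0.0016).

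Among the falls, Tob1, an antiproliferative protein of the same family as Btg2, fell by 0.64 (SE 0.11, adjusted p = 0.00051). The death-domain protein Pidd1 fell by 0.35, Rprm, which arrests cells before mitosis, by 1.06, Ppm1d, a phosphatase that acts on p53 itself, by 0.54 and Psrc1, a spindle protein, by 1.37. In GF cells 2 of the 42 rose, Ephx1, an epoxide hydrolase, by 3.56 (SE 0.60) and Plk2 by 2.36 (SE 0.44), and Tob1 fell by 0.95 (SE 0.14). Plk2 lay at 10.44 to 11.33 in GF cells, above all parental arrays. Against GF cells, RAS cells had 6 other targets higher, led by Thbs1 (3.10), Phlda3 (3.02) and Lif (2.71), and 2 lower, Sesn2 (-1.25) and Rps27l (-0.51).

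**Figure D4:**
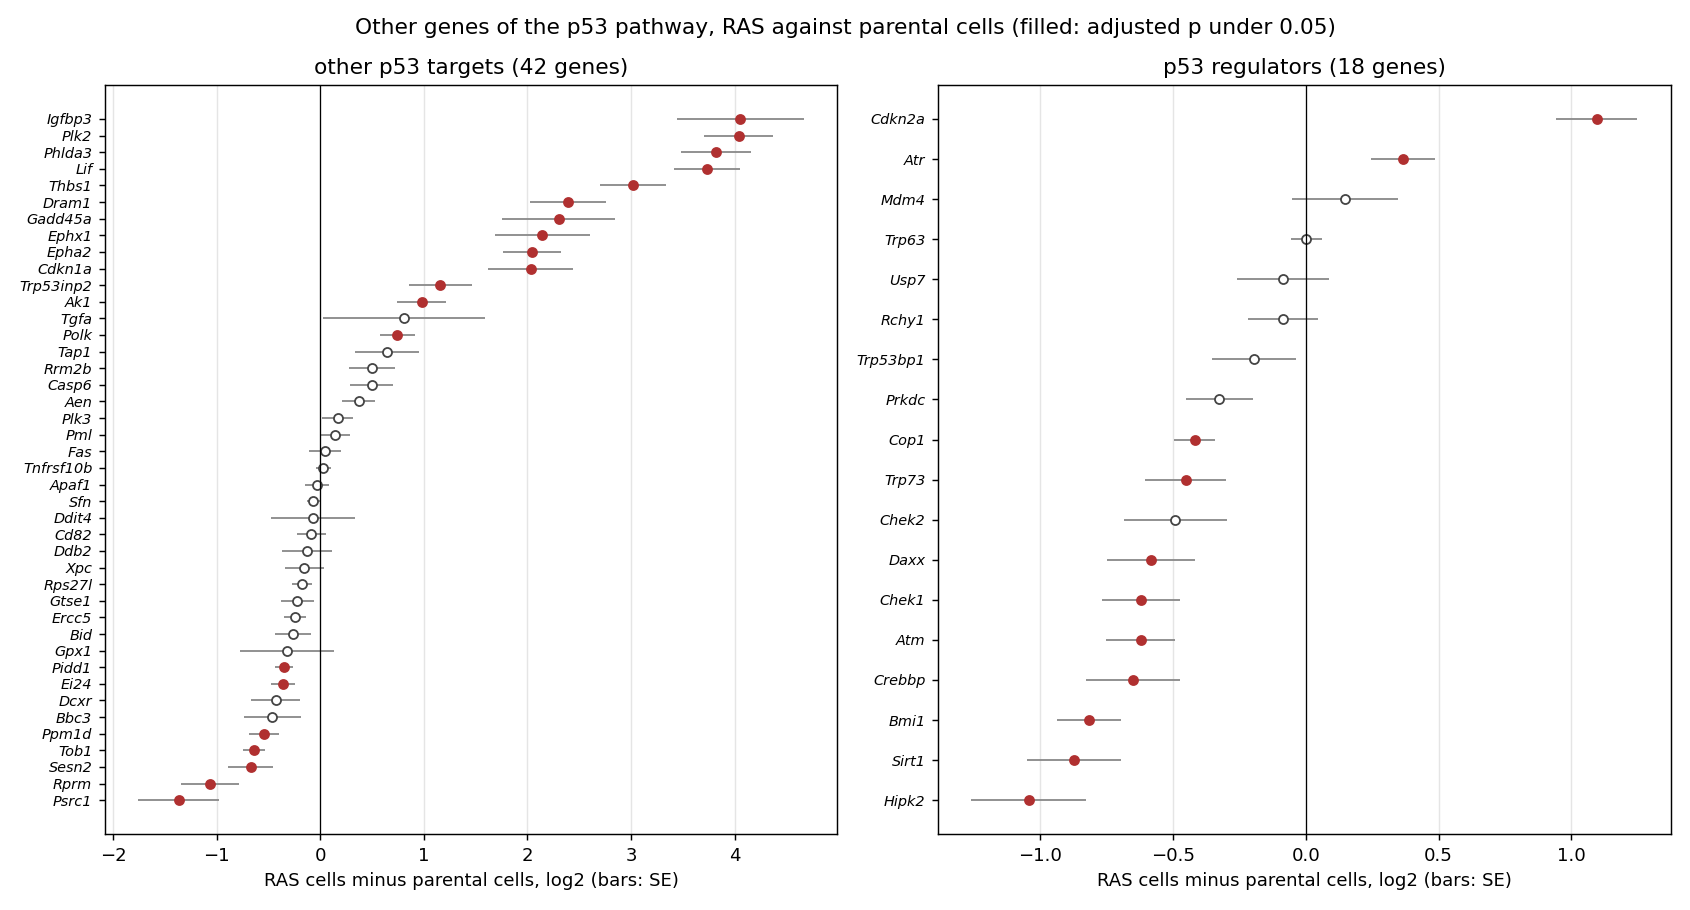
Log2 difference between RAS and parental cells for the 42 other p53 targets (left) and 18 p53 regulators (right), with SE bars; filled points have an adjusted p under 0.05. Of the other targets 13 rose and 7 fell, and of the regulators 2 rose and 9 fell.

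Of 18 regulators of p53 measured (23 listed), 2 rose and 9 fell in RAS cells, beside 14.1% of all genes higher and 17.9% lower. Their median difference was -0.44, against -0.05 over all genes. Cdkn2a, whose Arf product inhibits Mdm2, rose by 1.10 (SE 0.15, adjusted p = 0.000104) and lay at 12.92 to 13.33 in RAS cells, at 11.84 to 12.31 in GF cells and at 11.28 to 12.48 in parental cells. The probe set was not assigned to Arf or to the Ink4a product of the same gene. Atr, a kinase of the DNA damage response, rose by 0.37. Bmi1, a polycomb protein that represses Cdkn2a, fell by 0.81 (SE 0.12, adjusted p = 0.000168), and every RAS array except SMB21 replicate 1 lay below every parental array (11.86 to 12.57). The ubiquitin ligase Cop1 fell by 0.42, the deacetylase Sirt1 by 0.87, the kinase Hipk2 by 1.04 and the kinase Atm by 0.62. Mdm4, the partner of Mdm2, differed by 0.15 from parental cells (SE 0.20, adjusted p = 0.600) and was 0.86 higher than in GF cells (adjusted p = 0.0499). In GF cells the ubiquitin ligase Rchy1 (-0.72) and Sirt1 (-0.79) fell and none rose, of the 18, and Mdm4 differed by -0.71 (SE 0.26, adjusted p = 0.106).

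Primary MB against P6 cerebellum compared tumors with the normal tissue at the age when precursors divide. Mdm2 rose and was the only member called, 1 of 8 beside 11.0% of all genes (4.30% higher and 6.68% lower). Mdm2 had 10.15, 10.49 and 10.10 in MB, against 9.03 and 9.06 in P6, and the adult cerebellum had 9.63. Every tumor lay above every cerebellum, and Mdm2 was 1.20 higher in MB than in P6 (SE 0.19, 2.30-fold, adjusted p = 0.0108). Its second probe set gave 1.41. The call was lost without P6 replicate 1 or 2 (adjusted p = 0.0898 and 0.0956).

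Pmaip1 and Perp differed widely without passing. Pmaip1 had 8.55, 8.55 and 9.31 in MB, against 6.63 in both P6 arrays, and was 2.18 higher (SE 0.60, adjusted p = 0.0634). Perp had 7.14, 6.83 and 6.68 in MB, against 8.61 and 8.48 in P6, and differed by -1.66 (SE 0.43, adjusted p = 0.0532). Neither pair of groups overlapped, which carries little weight with 3 and 2 arrays. Pmaip1 was called with arrays centred on their median (2.35, adjusted p = 0.0394) and Perp with a pseudocount of 64 (-1.34, adjusted p = 0.0389), and both were called in fits of these groups alone (0.00939 and 0.00515).

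Sesn1 (0.17), Trp53inp1 (0.22), Zmat3 (0.41), Btg2 (-0.27) and Ccng1 (-0.53) were not called. Zmat3 and Ccng1 were uneven among tumors. Zmat3 had 9.97, 8.57 and 9.74 in MB, against 9.02 and 9.01 in P6, and Ccng1 had 11.04, 9.81 and 10.70, against 11.03 and 11.07. Tumor 2 was lowest in both, and without it Zmat3 was 0.84 higher (adjusted p = 0.0348). The 4 mature granule neuron markers were uneven among tumors too, with 0 of 4 called. Their mean log2 level was lowest in tumor 2 (7.49) and highest in tumor 1 (10.65), against 8.01 to 8.11 in P6. The part of these markers in the levels of Zmat3 and Ccng1 was not tested. Cell types differed between these tissues, with 3 of 3 Purkinje cell markers and 4 of 5 astrocyte markers lower in MB and 9 of 11 microglia and macrophage markers higher (mean log2 level 9.92 to 10.49 in MB and 8.74 to 9.14 in P6). Their part in the difference of Mdm2 was not tested. Centring the arrays shifted all genes by 0.17, and the split of calls went to 989 higher and 616 lower, against 533 higher and 828 lower.

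Around the members, Cdkn2a showed the largest difference among the p53 regulators in MB. It lay at 11.01, 11.38 and 11.56 in MB, against 5.23 and 5.41 in P6, and was 5.99 higher (SE 0.22, adjusted p = 1.73e-05). P6 values are among the lowest on the arrays, so the size of the difference is a compressed one. Bmi1 (0.50) and the acetyltransferase Crebbp (1.01) also rose, 3 of 18 regulators in all, while Mdm4 was 0.35 higher (adjusted p = 0.162). Of the 42 other targets Ppm1d (0.76) and Pml (0.59), which builds nuclear bodies, rose and Plk2 fell by 1.64.

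Adult against P6 cerebellum sets normal tissue of 2 ages side by side, with a single adult array that is assumed to vary like the other groups. In a fit of these groups alone, whose spread comes from the 2 P6 arrays, 7 of 8 members and 6294 genes were called. Btg2 had 9.06 in the adult, against 10.23 and 10.41 in P6, and fell by 1.26 (SE 0.16, adjusted p = 0.00226), the only call of 8 members beside 19.2% of all genes (8.85% higher and 10.3% lower). Perp was highest of all arrays in the adult cerebellum, at 10.45 against 8.61 and 8.48 in P6, and differed by 1.91 (SE 0.58, adjusted p = 0.0613). Trp53inp1 had 10.60 in the adult, against 11.78 and 11.68 in P6 (-1.13, adjusted p = 0.153), and Zmat3 9.95, against 9.02 and 9.01 (0.93, adjusted p = 0.279). Proliferation markers were lower in 6 of 6 (mean log2 level 6.08 in the adult and 10.96 to 11.03 in P6), endothelium markers in 4 of 5 and granule neuron precursor markers in 2 of 5, and 2 of 4 oligodendrocyte markers were higher. Age and cell types cannot be told apart here. Of the 42 other targets 3 rose, led by Ephx1 (2.83), and 6 fell, with Psrc1 lowest (-3.70). Of the 18 regulators Hipk2 rose by 1.67 and 6 fell, led by the cell cycle checkpoint kinase Chek1 (-3.90).

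Parental SMB cells against MB compared cultured lines with tumors in the animal, each line as 1 mean. Btg2 rose and Sesn1 fell, 2 of 8 members beside 20.6% of all genes (12.4% higher and 8.19% lower). Btg2 lay at 11.16 to 12.10 over the 8 parental arrays (median 11.39), against 9.95, 10.04 and 10.15 in MB, and was 1.43 higher (SE 0.11, 2.70-fold, adjusted p = 0.000556). Its second probe set gave 1.64. Sesn1 lay at 10.39 to 10.80 in parental cells (median 10.63), against 12.06, 11.75 and 11.83 in MB, a 2.46-fold fall (-1.30, SE 0.11, adjusted p = 0.00101). The other 2 probe sets of Sesn1 gave -1.21 and -1.28. In both genes no parental array overlapped with a tumor, and both calls held in every alternative tried.

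Mdm2 (-0.47, adjusted p = 0.0946) and Trp53inp1 (-0.81, adjusted p = 0.113) were lower without passing. The second probe set gave a smaller difference in both, -0.30 for Mdm2 and -0.26 for Trp53inp1. Read by the brighter probe set, both genes passed with arrays centred on their median (-0.69, adjusted p = 0.0437, and -1.03, adjusted p = 0.0391). Centring shifted all genes by -0.21, and the calls split into 834 higher and 2032 lower, against 1538 higher and 1015 lower. Trp53inp1 was also called without line SMB55 (-1.17, adjusted p = 0.0129), and Ccng1 (-0.45) without tumor 2 (-0.81, adjusted p = 0.0334). Pmaip1 (-0.13, interval -1.40 to 1.13), Perp (-0.12, interval -1.03 to 0.79) and Zmat3 (0.06) were not called. All 11 microglia and macrophage markers were lower in parental cells (mean log2 level 5.70 to 5.93 in parental cells and 9.92 to 10.49 in MB), and their part in the level of Sesn1 was not tested. Of the 42 other targets 6 rose, among them Ddit4 (1.24), Sesn2 (1.05) and Gtse1 (0.89), and Trp53inp2 (-0.93) and Epha2 (-0.88) fell. Of the 18 regulators 2 rose, the DNA repair kinase Prkdc (1.03) and Daxx (0.44), and 3 fell, Crebbp (-1.08), Sirt1 (-0.63) and Bmi1 (-0.52). Cdkn2a differed by 0.53 (adjusted p = 0.0992).

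Parental SMB cells against P6 cerebellum gave 5 calls of 8 members, beside 25.6% of all genes (14.6% higher and 11.0% lower). With arrays centred on their median, calls over all genes split into 1324 higher and 1403 lower, against 1813 higher and 1363 lower. Btg2 (1.16, adjusted p = 0.000989), Mdm2 (0.73, adjusted p = 0.0323) and Pmaip1 (2.04, adjusted p = 0.0455) rose. Sesn1 fell by 1.13 (adjusted p = 0.00148) and Perp by 1.78 (adjusted p = 0.0245). Mdm2 lay at 8.95 to 10.13 in parental cells (median 9.95), against 9.03 and 9.06 in P6, and SMB56 replicate 1 lay below both P6 arrays. Pmaip1 lay at 5.38 to 10.02 (median 9.41), against 6.63 in both P6 arrays, and SMB56 replicate 2 lay below them. Perp lay at 5.69 to 7.63 (median 7.18), below both P6 arrays (8.61 and 8.48). Cell type markers were lower in parental cells for 3 of 3 Purkinje cell, 5 of 5 astrocyte, 11 of 11 microglia and macrophage and 5 of 5 endothelium genes (mean log2 level of the astrocyte list 6.46 to 7.45 in parental cells and 11.38 to 11.54 in P6). Their part in these 5 calls was not tested.

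The calls of Btg2 and Sesn1 held in every alternative tried. Those of Mdm2, Perp and Pmaip1 were lost without P6 replicate 1 (adjusted p = 0.158, 0.138 and 0.186) or 2 (0.148, 0.120 and 0.189). Pmaip1 was also lost without any 1 tumor array (0.0572 to 0.0652) and without line SMB21 or SMB55, and Mdm2 without line SMB21 or SMB55 (0.0681 and 0.0687) and with centred arrays (0.69, adjusted p = 0.0622). With all 8 parental arrays and the line as a random block, neither Mdm2 (0.0601) nor Pmaip1 (0.155) was called. Ccng1 (-0.98, adjusted p = 0.0796) passed without tumor 2 (0.0133) and with centred arrays (-1.02, adjusted p = 0.0482). Cdkn2a was 6.52 higher in parental cells than in P6 (SE 0.22), and Mdm4 was 0.48 higher (adjusted p = 0.0443), among 5 of 18 regulators that rose and 0 that fell. Of the 42 other targets 7 rose, with Pml (1.35), Gtse1 (1.26) and Ddit4 (1.42) among them, and 3 fell, Plk2 (-1.32), Trp53inp2 (-1.07) and Ak1 (-2.24).

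Over the 12 condition means (P6, adult, MB and the 9 combinations of line and treatment), Pmaip1 and Perp spanned the widest ranges (5.10 and 5.05). Both have low ends near the lowest 10% of all values, which limits what their order shows at that end. Pmaip1 was highest in SMB21 RAS cells (10.54) and lowest in SMB21 GF cells (5.45). Perp was highest in the adult cerebellum at 10.45 and next in P6 at 8.54, and lowest in GF cells of SMB56 and SMB21 at 5.53 and 5.41, neighbours that differ by less than the spread among parental replicates. Btg2 was highest in parental SMB21 (11.62) and SMB55 (11.43), which overlap, and lowest in SMB56 RAS (8.76) and GF (8.12). Trp53inp1 was highest in MB (11.94), next in parental SMB55 (11.85), whose 2 arrays lie on either side of the tumors, and lowest in SMB21 RAS (9.57) and GF (9.33). Mdm2 and Zmat3 spanned the least, 1.81 and 1.79.

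Among the 8215 genes whose 12 condition means span at least 1, those most like Pmaip1 were Ror2, Riox1 and Setd4 (Pearson r of 0.873, 0.843 and 0.834). Perp was most like Atp6v1d, Kcnab1 and Larp6 (0.943, 0.934 and 0.930), Btg2 like Nsun5, Mfng and Fzd3 (0.915, 0.885 and 0.882) and Trp53inp1 like Ccne2, Dpysl4 and Igfbpl1 (0.937, 0.929 and 0.928). Over the 18 culture arrays, with each line's mean removed, Trp53inp1, Btg2 and Sesn1 varied together (r of 0.69 to 0.71 for the 3 pairs), and Pmaip1 with Perp (0.66). Mdm2 and Zmat3 varied in opposite directions (-0.83). These are descriptions over arrays that share their lines, their treatments and their normalization.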

How the data were processed

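The deposited values are 1 linear intensity per probe set and array, made by the authors with a summarisation and normalization that are not given in the sources used here; per the labels, biotin-labelled total RNA was hybridised by the Affymetrix protocol. Arrays have no read depth, and the number of arrays limits the precision. Of 22690 probe sets 20393 have 1 gene symbol, 691 several and 1606 none, and 20364 matched RefSeq GRCm38.p6 by gene identifier. The brightest probe set on average stood for each of 12394 genes, as log2 of intensity plus 16.

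Model fits used limma 3.58.1 (R 4.3.3) (lmFit, contrasts.fit and eBayes, two-sided, Benjamini-Hochberg adjustment over 12394 genes, threshold 0.05) and tested on simulated data. Tissues were compared in 1 fit of P6, adult, MB and 3 parental line means, cultures in 1 fit of 18 arrays with treatment and line, and lines in a fit of 9 means of line and treatment, with F tests of the differences. Alternatives changed the pseudocount, filter, centring, probe sets, variance prior, samples in the fit, unit of replication and blocks, and left out each array.

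Members and lists were chosen with earlier results of these data known. Named are all members, the called genes of the lists of other p53 targets and p53 regulators, at most 5 with the smallest p per direction, and Cdkn2a and Mdm4 always. The genes most like a member were taken for the 4 members with the widest range. Promoters were searched in Python 3.11.15 with pandas 2.3.3, and figures drawn with matplotlib 3.10.9.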

Additional observations from a re-analysis of the deposited data

Results flagged for a closer look

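Of 24 tests for a single array far from the others (8 genes in 3 sets, all parental, all RAS and SMB21 parental arrays), 5 found one. Chance gives about 1 in 20 where the arrays are independent and of the same kind. That rate need not hold here. The first 2 sets pool 3 lines, and the SMB21 parental arrays were tested again among all parental arrays. In SMB21 parental replicate 1, Mdm2 lay at 9.70, with the other 3 arrays at 10.10 to 10.13. In the same array Pmaip1 lay at 7.88, with the others at 9.76 to 10.02. Over all 8 parental arrays, Mdm2 in SMB56 replicate 1 was lowest at 8.95, and the next value was 9.70. Pmaip1 in SMB56 replicate 2 was lowest at 5.38, and the next was 7.88. Trp53inp1 in SMB55 replicate 1 was highest at 12.64, and the next was 11.39. Without parental replicate 1 of every line, Mdm2 was 0.36 higher in RAS than in parental cells (adjusted p = 0.262) and Trp53inp1 differed by -0.998, still called.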

How the results depend on the processing

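Of 3032 values of single members under alternative settings, 2820 kept their side of the threshold, 155 lost a call, 57 gained one and 0 called values changed sign. Values that changed sign without a call in either fit count among the 2820, and values of F tests have no direction. Numbers of members called, then of all genes called, moved by over 1.5 times as follows, and the cause was not tested. RAS against parental cells: 3 and 667 with 1 mean per line and treatment, and 2548 genes without line SMB55. GF against parental cells: 0 and 19 with such means, 0 and 243 with the replicate block, 0 and 200 without line SMB21, 0 and 306 without SMB56, and 2 members without SMB55, with only these groups in the fit and without parental array 1 of every line. RAS against GF cells: 0 and 53 with such means, 1 and 161 with the replicate block, 1 and 222 without SMB55, 1 and 898 with only these groups, and 1 member without SMB21, with centred arrays and with a pseudocount of 64. MB against P6: 0 and 453 with the replicate block, 896 genes with the line as a random block, 3 members with the filter, the trended prior and only these groups, and 2 with centring, a pseudocount of 64 and the 3 cerebella as 1 group. Parental cells against P6: 2 and 1294 with the replicate block. Parental cells against MB: 433 genes with the replicate block, 1686 with only these groups and 4 members with centring. Adult against P6: 1180 genes with the replicate block, 7 and 6294 with only these groups, and 2 members with the filter, a pseudocount of 64 and the trended prior. In GF cells within lines, the filter gave 2 members in SMB21 and a pseudocount of 64 gave 1 in SMB56. Leaving out 1 array or line gave these ranges of members: adult against P6 1 to 3, GF against parental 0 to 4, GF in SMB21 1 to 2, GF by line 0 to 1, parental against P6 2 to 5, parental lines 0 to 3, MB against P6 0 to 2, RAS against GF 1 to 2, RAS in SMB55 0 to 5 and RAS in SMB56 1 to 3. For all genes the ranges were adult against P6 1107 to 2729, GF against parental 401 to 1190, GF in SMB21 643 to 1513, GF in SMB55 52 to 140, GF by line 65 to 339, parental against P6 970 to 3699, parental against MB 1574 to 2553, parental lines 228 to 1280, MB against P6 341 to 1650, RAS against GF 457 to 1659, RAS in SMB55 1227 to 3028, RAS in SMB56 329 to 2360 and RAS by line 190 to 1230. Same-numbered arrays did not deviate together (r of -0.154 to -0.020 for RAS and parental arrays, -0.028 and 0.005 for MB and P6), and GF groups have 1 array per line, so the numbers were not taken to pair samples. With the replicate block and the numbers of SMB55 crossed, 0 members and 363 genes were called for GF against parental cells, 0 and 158 for RAS against GF cells and 4 members for RAS against parental cells, a count within 1.5 times of the 5. Leaving out parental array 1 of every line, leaving out a line of the cultures and the crossed numbers were chosen after seeing the data. In RAS cells within SMB56, centring split the calls over all genes into 611 higher and 1044 lower, against 761 higher and 731 lower. Levels near the lowest intensities (Perp in GF cells, Pmaip1 in SMB21 GF cells) limit what a difference can show.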
